A study of Mus musculus with 14 samples.

Results

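The genes of 2 neurotrophins (*Bdnf* and *Ntf3*), of their receptors (*Ntrk2*, *Ntrk3* and *Ngfr*), and of insulin-like growth factor 1 and its receptor (*Igf1* and *Igf1r*) were followed through the Atoh1 lineage of the mouse hindbrain. These 7 genes were taken by symbol from the 31054 features of the count tables, and all 7 were found. The study sequenced sorted single cells in 14 libraries to follow how pontine nuclei (PN) neurons form and what a hypomorphic Atoh1 allele does to them. Control embryos were Atoh1Cre/+; Rosa lsl-TdTomato/+, and mutant embryos were Atoh1Cre/S193A; Rosa lsl-TdTomato/+, called Atoh1S193A/-. Both genotypes carried 1 Cre allele that is null for *Atoh1*, so the controls had 1 working copy. All animals were C57BL/6J. At E14.5 and at E18.5 the whole hindbrain of 1 embryo gave 1 library, with 3 control and 3 mutant libraries per stage, and each mutant was collected with a littermate control. At P5 the PN were microdissected from control pups, and 11 to 13 pups were pooled for each of 2 libraries. TdTomato-positive, DAPI-negative cells were sorted to select cells with a history of *Atoh1*-driven Cre, but the P5 libraries also held glia, among them 935 microglia-like and 855 oligodendrocyte-like cells.

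Neurotrophins are secreted proteins that support the survival, growth and synapses of neurons. BDNF binds the receptor tyrosine kinase TrkB, the product of *Ntrk2*, and NT-3, the product of *Ntf3*, binds mainly TrkC, the product of *Ntrk3*. *Ngfr* encodes p75NTR, which binds all neurotrophins and their precursors. IGF1 acts through the receptor tyrosine kinase IGF1R and supports growth and survival. PN neurons send mossy fibers to cerebellar granule cells, and *Bdnf* is known for activity-dependent expression in excitatory neurons. The 3′ tags counted here do not separate full-length from truncated TrkB or TrkC, or the transcripts of the different *Bdnf* promoters. All 7 genes are protein coding. On GRCm38, *Bdnf* lies at chr2:109674700-109727007 (+), *Ntf3* at chr6:126101412-126166910 (-), *Ntrk2* at chr13:58806569-59133970 (+), *Ntrk3* at chr7:78175959-78738012 (-), *Ngfr* at chr11:95568818-95587735 (-), *Igf1* at chr10:87858265-87937042 (+) and *Igf1r* at chr7:67952827-68233668 (+).

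Of 150188 barcodes, 80250 cells were kept, with 34425 cells at E14.5, 31819 at E18.5 and 14006 at P5. Total UMIs per library were between 108239001 and 236964126, and the median per kept cell was between 12010.5 and 20922 UMIs. Levels are given as CPM, the UMIs of a gene over all cells of a class in a library, scaled to the same total of UMIs for every class and library, and the library is the unit of every mean, SD and test. Cells were clustered without the 7 genes and named from marker lists, with "-like" for a name that rests on such a list. Some granule progenitor-like clusters had no granule marker among their leading genes, cell cycle genes set aside. These held 1791 and 195 cells at E14.5 and 1699 and 1444 cells at E18.5. Other granule clusters had as many markers of another list as of their own. *Atoh1* itself was read in every embryonic library, but the point mutation leaves a transcript and its count does not check the genotype. In the E14.5 litter 2 the granule lineage was small in both embryos, with 301 and 163 cells against 485 to 1124 in the other libraries. Of the 724 P5 cells called *Neurod1* *Ccnd2* Hox-negative cells, 713 came from library 2. Between 3 and 22 barcode sequences were shared by any pair of libraries.

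*Bdnf*, summed over all pontine neurons, rose at each step from E14.5 to P5. Its level in all pontine neuron-like cells of the control libraries was 9.86, 4.99 and 6.997 CPM at E14.5 and 19.3, 17.3 and 30.0 CPM at E18.5. At P5 it was 137 and 131 CPM. The 3 stages did not overlap. The log2 change was 1.54 (SE 0.272, FDR 0.00122) from E14.5 to E18.5 and 2.62 (SE 0.175, FDR 6.38e-07) from E18.5 to P5 by edgeR's quasi-likelihood test. The P5 libraries differed from the E18.5 libraries in dissection and pooling as well as in age, and these cannot be told apart. The pooled class was also made of different cells at each stage. Migrating neurons, which had 3.45 and 1.56 CPM of *Bdnf* at E14.5 and E18.5, were 995 of the control cells beside 1271 differentiated ones at E14.5, 308 of 1687 at E18.5 and were not found as a class at P5. Differentiated cells at E14.5 had 10.2 CPM. Among differentiated pontine classes found in every E18.5 control library, means ran from 11.3 CPM in ePN1-like cells to 70.1 CPM in *Etv1* *Bcl11b* neurons. The part of this mix in the stage differences of the 7 genes was not tested. A sum over a class also cannot tell more expressing cells from more RNA per cell.

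The order of *Bdnf* levels among named P5 pontine subtypes covered an 8.01-fold range. Of the 7165 P5 pontine neurons, 2349 matched no named subtype and are outside this and the other subtype orders. They had 126 and 109 CPM of *Bdnf*. Another 1055 P5 cells, named only as cells with genes of another type, held 191 and 171 CPM. They were counted neither as pontine neurons nor in any order of classes. PN6-like cells held 239 and 249 CPM and PN4-like cells 227 and 244 CPM, and these subtypes overlapped. PN1-like cells followed with 121 and 120 CPM. PN2-like cells had 66.6 ± 16.7 CPM and PN3-like cells 51.7 ± 5.96 CPM (SD, n = 2), which overlapped each other. PN5-like cells were lowest with 29.2 and 31.7 CPM, apart from every other named pontine subtype. PN4-like cells were 14.05% and 12.4% of the pontine neurons in the 2 libraries and held 29.7% and 31.8% of their *Bdnf* UMIs. A *Bdnf* UMI was found in 95.8% of PN6-like cells on average and in 41.1% of PN5-like cells. In microglia-like cells the share was 4.51% on average, with 7.26% and 1.75% in the 2 libraries. The median depth was 41005, 26036 and 10657 UMIs per cell in these 3 classes. Thinned shares, here and below, come from cells with at least 5000 UMIs, each thinned to 5000, and shallower cells were left out. Among microglia-like cells this left out 72 and 36 cells in the 2 libraries. The thinned shares were 61.4%, 13.4% and 1.64%, in the same order.

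At E18.5, *Bdnf* was highest in a small group of pontine neurons led by *Etv1* and *Bcl11b*, with 46.2, 93.6 and 70.6 CPM in the control libraries. These libraries held 22, 15 and 73 such cells. Cells like ePN3, an embryonic subtype marked by *Hoxb5*, *Hoxc4* and *Hoxa5*, followed with 36.5 ± 14.2 CPM and overlapped them. ePN2-like cells had 17.04 ± 6.33 CPM and ePN1-like cells 11.3 ± 2.20 CPM (SD, n = 3). Migrating pontine neurons had 0, 2.96 and 1.72 CPM, which was below every library of the ePN1-like, ePN2-like and ePN3-like cells. At E14.5 the order was similar, with 10.2 ± 3.21 CPM in differentiated and 3.45 ± 1.30 CPM in migrating pontine neurons. These groups did not overlap, whereas progenitors of the pontine lineage were at or below 1.80 CPM on average. The lineage of cerebellar granule cells held little *Bdnf* at E18.5, with 2.07 ± 1.23 CPM in progenitors and 1.89 ± 0.513 CPM in neurons.

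**Figure D1:**
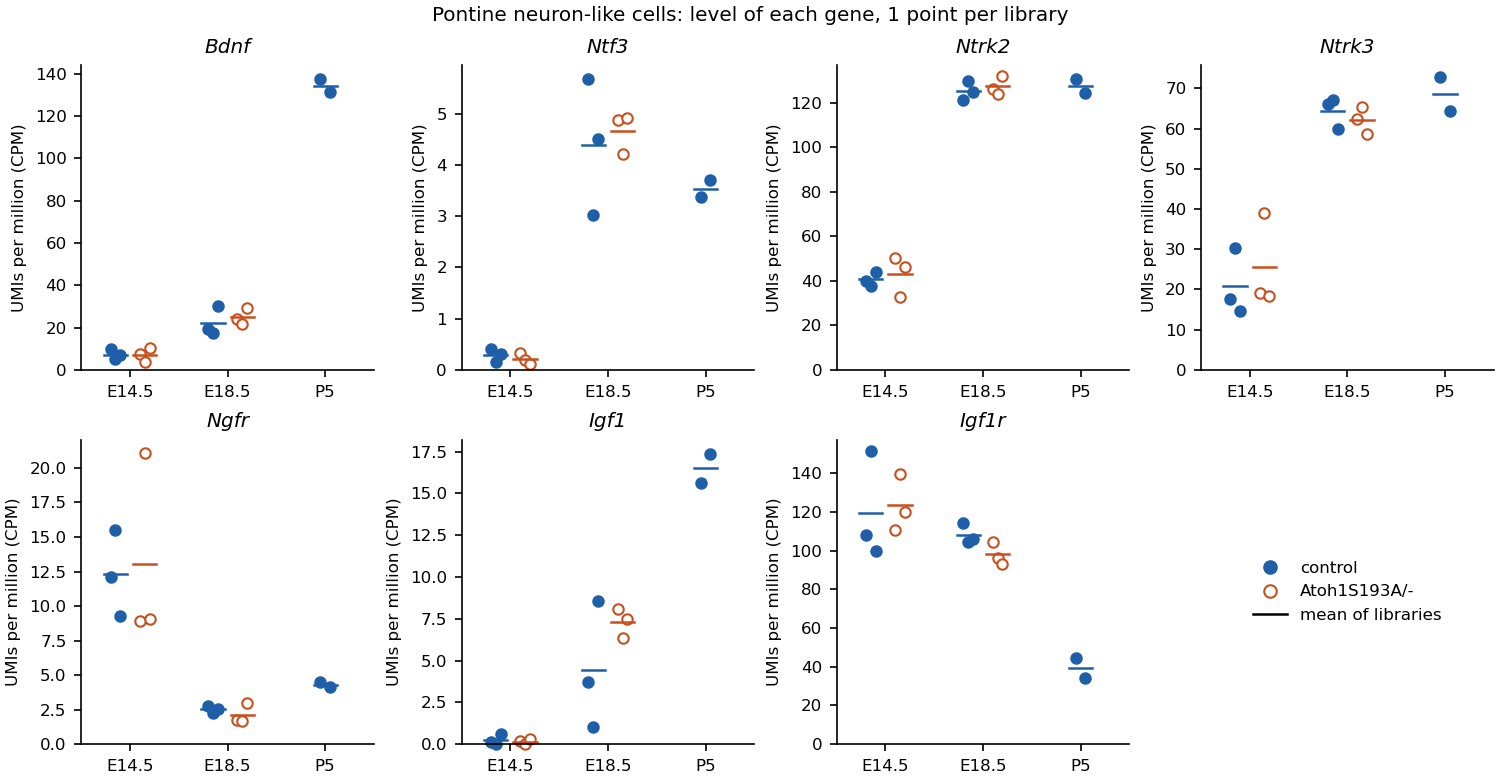
Level of the 7 genes in all pontine neuron-like cells (CPM, vertical axis from 0) at E14.5, E18.5 and P5 (horizontal axis). Each point is 1 library (filled: control, open: Atoh1S193A/-) and lines are means. *Bdnf* rose to 137 and 131 CPM at P5, *Ntrk2* and *Ntrk3* rose between E14.5 and E18.5, and *Ngfr* and *Igf1r* were lower at P5 than at E14.5.

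*Ntf3* was low in most pontine neurons and concentrated in other cells of the lineage. In pontine neuron-like cells the control libraries held 0.407, 0.158 and 0.313 CPM at E14.5 and 5.67, 3.02 and 4.51 CPM at E18.5. At P5 they held 3.37 and 3.71 CPM. Fewer than 10% of the cells had a UMI at any stage, so the gene was below the filter for a test. The E14.5 and E18.5 values did not overlap, and the P5 values lay within the range at E18.5.

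Within the P5 PN, *Ntf3* was concentrated in PN6-like cells. These cells were 7.17% and 6.43% of the pontine neurons and held 61.5% and 62.25% of the *Ntf3* UMIs of all pontine neurons. The level was 23.3 and 28.5 CPM in PN6-like cells, below the 69.7 and 29.8 CPM of the *Neurod1* *Ccnd2* Hox-negative cells. The 69.7 CPM came from 7 UMIs in the 11 such cells of library 1. PN5-like cells had 4.24 ± 1.25 CPM and PN1-like cells 4.03 ± 0.666 CPM (SD, n = 2), overlapping each other. PN4-like cells had 2 UMIs in 964 cells, PN2-like cells 1 UMI in 495 cells and PN3-like cells 7 UMIs in 1022 cells. The share of PN6-like cells with a UMI was 35.8% and 41.8% in the 2 libraries, against 0.315% and 0 in PN4-like cells. Median depth was 37798 and 44211 UMIs per cell in PN6-like and 38079 and 48117 in PN4-like cells. None of the 329 PN4-like cells of library 2 had a UMI, which allows a share of up to 1.115% (95% exact binomial interval, counting error only). After thinning, the PN6-like shares were 8.95% and 12.4%.

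Among embryonic cells, *Ntf3* was highest in E18.5 neurons that lacked Hox genes and carried *Pax6* and high *Mapt*, with 86.8, 90.7 and 83.4 CPM in the control libraries. Unipolar brush cell-like cells, excitatory interneurons of the cerebellum, had 64.1, 63.6 and 33.98 CPM. Granule progenitor-like cells had 30.9 ± 6.43 CPM, above the 7.98 ± 2.47 CPM of granule neuron-like cells (SD, n = 3), with no overlap. At E14.5, *Pvalb* *Fst* progenitors held 34.2, 2.37 and 51.1 CPM, so that the library of litter 2 stood far below the others. No *Ntf3* UMI was found in the 250 pontine progenitor-like cells of the E14.5 controls. In the granule lineage the same split between litters was seen in both genotypes, with 10.6, 0.679 and 17.1 CPM in controls and 13.7, 0.246 and 13.0 CPM in mutants. The place of litter 2 in this order moved with its small granule lineage, and its part in the result was not tested.

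At P5, *Igf1* was highest among pontine subtypes in PN6-like cells, and PN4-like and PN1-like cells held it at a lower level. *Igf1* is on the study's own list of PN6 markers, found on these libraries, and was left out of the list used here to name the subtype, so its level there is a description and not independent evidence. PN6-like cells held 124 and 151 CPM, PN4-like cells 13.1 and 15.6 CPM and PN1-like cells 5.78 and 6.25 CPM. The lowest level, 0.507 ± 0.189 CPM (SD, n = 2), was in PN5-like cells, which gave 6 UMIs in 432 cells. PN6-like cells held 70.8% and 70.5% of the *Igf1* UMIs of all pontine neurons. Outside neurons, macrophage-like cells had 403 and 578 CPM and microglia-like cells 92.7 and 111 CPM. Mural or fibroblast-like cells had 58.1 and 113 CPM, which overlapped microglia-like cells. Macrophages and microglia are known sources of IGF1.

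To read the neuronal *Igf1* beside free RNA of macrophages and microglia, it was set against *C1qa*, *C1qb* and *C1qc*, complement genes of microglia. Microglia-like cells held 0.00808 and 0.008625 *Igf1* UMIs per C1q UMI, and macrophage-like cells 0.0422 and 0.0525. In PN6-like cells the ratio was 17.65 and 45.8, and in PN4-like cells 1.56 and 4.55. These ratios bear only on sources rich in C1q, and the part of free RNA of other classes was not tested. The share of cells with an *Igf1* UMI was 58.7% in PN6-like and 1.35% in PN5-like cells, at median depths of 41005 and 26036 UMIs. After thinning these shares were 31.9% and 0. The level varied widely among PN6-like cells, with up to 64 and 67 *Igf1* UMIs in a cell.

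In all pontine neurons, *Igf1* was 0.102, 0 and 0.627 CPM at E14.5, 3.74, 1.05 and 8.59 CPM at E18.5, and 15.6 and 17.4 CPM at P5. The difference between E18.5 and P5 was 1.76 on the log2 scale (SE 0.387, FDR 0.00226, edgeR quasi-likelihood test) and the libraries did not overlap. It was 2.85 without control library 3 of E18.5, and DESeq2 gave an FDR of 0.0656. At E18.5 the *Etv1* *Bcl11b* pontine neurons held 54.8%, 12.5% and 77.3% of the *Igf1* UMIs of pontine neurons in the 3 control libraries. These UMIs came from 1, 1 and 12 cells, and the levels of 28.03, 3.60 and 57.8 CPM rest on these few cells. In the mutant libraries the same cells held 44.3, 35.7 and 48.4 CPM, from 7, 3 and 7 cells.

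Other pontine neurons at E18.5 held less, with 2.70 CPM in ePN3-like cells and 2.32 CPM in migrating neurons (means of the control libraries). Outside the pontine lineage, inhibitory neuron-like cells had 76.6 and 28.6 CPM and other neurons 25.3, 43.8 and 46.8 CPM. The granule lineage held almost none, with 7 UMIs in 4713 progenitors and 3 UMIs in 1733 neurons of the E18.5 controls. At E14.5 the classes with the highest level were mural or fibroblast-like cells with 42.3 ± 21.4 CPM (SD, n = 2) and pontine progenitor-like cells with 35.6 ± 15.1 CPM (SD, n = 3). Intermediate progenitors of the pontine lineage had 0.834, 0 and 0.954 CPM, far below every library of the progenitors.

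**Figure D2:**
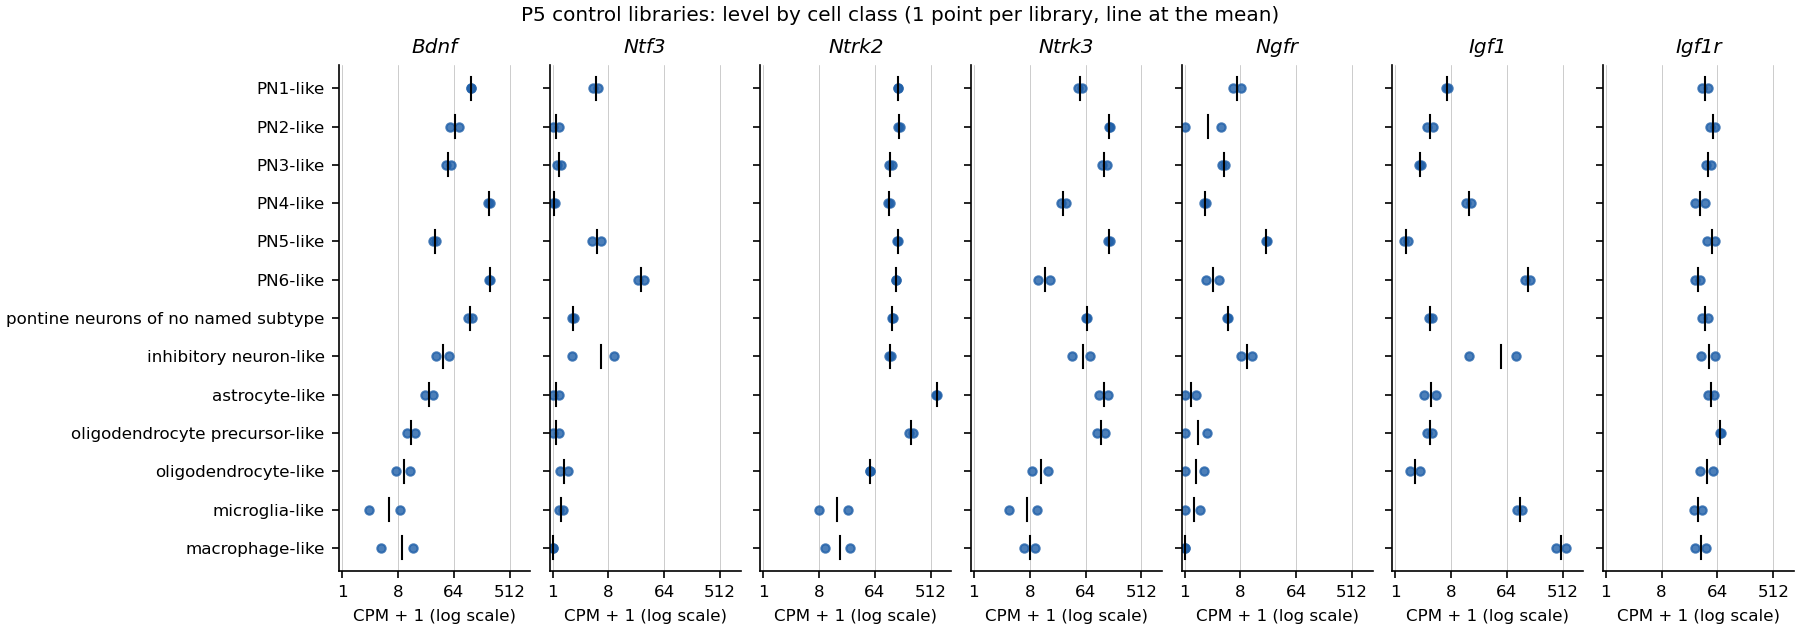
Levels of the 7 genes by cell class in the 2 P5 control libraries (CPM + 1, horizontal axis on a log scale; 1 point per library, black line at the mean). Among the pontine subtypes plotted, PN6-like cells were highest for *Ntf3* and *Igf1*, overlapped PN4-like cells at the top for *Bdnf* and were lowest for *Ntrk3*. Macrophage-like cells were highest for *Igf1*, and PN5-like cells were high for *Ngfr* and low for *Bdnf*. Among classes found in both libraries, astrocyte-like cells were highest for *Ntrk2*.

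The neurotrophin receptors *Ntrk2* and *Ntrk3* rose in pontine neurons before birth. *Ntrk2* was 40.1, 37.8 and 44.2 CPM at E14.5 and 121, 130 and 125 CPM at E18.5, a log2 change of 1.51 (SE 0.0866, FDR 9.56e-06). *Ntrk3* was 17.7, 30.4 and 14.7 CPM at E14.5 and 66.0, 67.0 and 60.0 CPM at E18.5, a log2 change of 1.504 (SE 0.239, FDR 0.000708). The stages did not overlap for either gene. From E18.5 to P5, *Ntrk2* changed by 0.10 (95% interval -0.08 to 0.28, FDR 0.290) and *Ntrk3* by 0.17 (-0.02 to 0.36, FDR 0.0959), and neither passed the test. Over the tested members, 4 of 5 passed between E14.5 and E18.5 and 4 of 6 between E18.5 and P5, where 60.0% (30.9% higher, 29.1% lower) and 63.9% (31.7% higher, 32.2% lower) of all tested genes passed. Some of these members entered only through the stage where they were higher, namely *Ngfr* through E14.5, and *Igf1* and *Ngfr* through P5.

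*Ntrk2* differed little among P5 pontine subtypes and *Ntrk3* differed widely. *Ntrk2* was highest in PN2-like cells with 153 and 163 CPM and lowest in PN4-like cells with 110 and 103 CPM, a 1.49-fold range. *Ntrk3* was 158 and 152 CPM in PN2-like cells, 159 and 144 CPM in PN5-like cells and 139 and 118 CPM in PN3-like cells. It was 51.5 ± 6.61 CPM in PN1-like, 27.01 ± 3.31 CPM in PN4-like and 16.1 and 10.0 CPM in PN6-like cells, an 11.9-fold range. So the subtypes lowest in *Ntrk3*, PN4-like and PN6-like cells, were those highest in *Bdnf*, over 6 subtypes of the same 2 libraries. A *Ntrk3* UMI was found in 28.99% of PN6-like cells against 94.8% of PN2-like cells, with 5.45% in microglia-like cells. The median depth was 41005, 27216 and 10657 UMIs. The thinned shares were 5.62%, 49.99% and 2.99%.

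*Ntrk3* also differed among pontine classes at E18.5. These classes were named from other lists than those of P5 and were not matched to them, so the orders are not compared. *Nr2f2* pontine neurons had 173 and 148 CPM, from 2 libraries with at least 10 such cells. ePN2-like cells had 92.6, 94.0 and 65.0 CPM, ePN1-like cells 32.997, 51.9 and 56.7 CPM and ePN3-like cells 45.2, 47.3 and 48.8 CPM. The *Etv1* *Bcl11b* pontine neurons had 21.4, 28.8 and 20.7 CPM, below all libraries of these 3 subtypes. Pontine neurons of no named subtype, 258 cells of the E18.5 controls, had a mean of 123 CPM. In granule neuron-like cells *Ntrk3* was 1.94 ± 1.29 CPM (SD, n = 3), with 45 UMIs in 1733 cells.

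Outside the pontine lineage *Ntrk2* was high in astrocytes and radial glia, and in the granule lineage it was higher in neurons than in progenitors. Among named classes found in at least 2 libraries of a stage, astrocyte or radial glia-like cells were highest at each stage. They had 294 ± 52.2 CPM at E14.5, 322 ± 55.8 CPM at E18.5 (SD, n = 3) and 638 ± 12.4 CPM at P5 (n = 2). Ependymal-like cells, found as 28 cells of P5 library 1, had 1225 CPM. Oligodendrocyte precursor-like cells had 246 ± 31.7 CPM and oligodendrocyte-like cells 52.1 ± 0.718 CPM at P5. In the granule lineage at E14.5, neuron-like cells had 154, 138 and 170 CPM and progenitor-like cells 12.4, 14.3 and 16.3 CPM. At E18.5 granule neuron-like cells had 133 ± 15.6 CPM and progenitor-like cells 42.7 ± 2.64 CPM, again with no overlap.

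*Ngfr* fell in pontine neurons before birth, and at E18.5 it was highest in granule progenitor-like cells. In pontine neuron-like cells it was 12.1, 15.5 and 9.30 CPM at E14.5, 2.77, 2.23 and 2.56 CPM at E18.5 and 4.49 and 4.11 CPM at P5, with no overlap between stages. The log2 change was -2.38 (SE 0.241, FDR 6.77e-05) from E14.5 to E18.5 and 0.84 (SE 0.186, FDR 0.00232) from E18.5 to P5. No *Ngfr* UMI was found in the 250 pontine progenitor-like cells at E14.5, and differentiated pontine neurons had 16.9 ± 8.20 CPM. At P5 the gene was highest in PN5-like cells with 20.7 and 19.6 CPM. *Neurod1* *Ccnd2* cells had 19.9 and 7.36 CPM, and the overlapping 19.9 CPM came from 2 UMIs in 1 of the 11 cells of library 1. PN1-like cells had 7.19 and 5.00 CPM, and the other named pontine subtypes were at or below 3.27 CPM on average. The share of PN5-like cells with a UMI was 33.6%, against 4.93% of the deeper PN4-like cells and 0.422% of microglia-like cells, at median depths of 26036, 43098 and 10657 UMIs. The thinned shares were 9.32%, 0.692% and 0.192%. In the granule lineage, progenitor-like cells rose from 1.46 ± 0.275 CPM at E14.5 to 37.9 ± 5.14 CPM at E18.5, which was not tested. Mural or fibroblast-like cells of E14.5 had 73.3 and 111 CPM in 49 cells.

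*Igf1r* was found in every class, and its level summed over all pontine neurons fell after birth. The level in pontine neuron-like cells was 108, 152 and 99.6 CPM at E14.5, 114, 104 and 106 CPM at E18.5 and 44.3 and 34.5 CPM at P5. The change from E18.5 to P5 was -1.38 (SE 0.105, FDR 1.39e-06) with no overlap. The E18.5 sum included migrating neurons, at a mean of 165 CPM, which the P5 sum lacked. From E14.5 to E18.5 it was -0.26 (95% interval -0.61 to 0.09, FDR 0.171), and the libraries overlapped. With the mutant libraries in place of the controls that difference was -0.39 with an FDR of 0.0171. Within the pontine lineage at E14.5, migrating neurons had 141 ± 19.4 CPM and intermediate progenitors 139 ± 10.1 CPM. Progenitors had 85.6 ± 17.03 CPM, below every library of these. At E18.5 migrating neurons had 162, 149 and 183 CPM. The *Etv1* *Bcl11b* neurons were lowest among all classes with 87.4, 75.6 and 73.2 CPM, and overlapped ePN2-like and ePN3-like cells. At P5 the range over subtypes was 1.76-fold, from 52.4 ± 7.27 CPM in PN2-like to 29.8 ± 3.73 CPM in PN6-like cells (SD, n = 2). PN6-like cells thus held the highest level of *Igf1* and the lowest of *Igf1r* among pontine subtypes, although their *Igf1r* overlapped that of PN4-like cells.

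**Figure D3:**
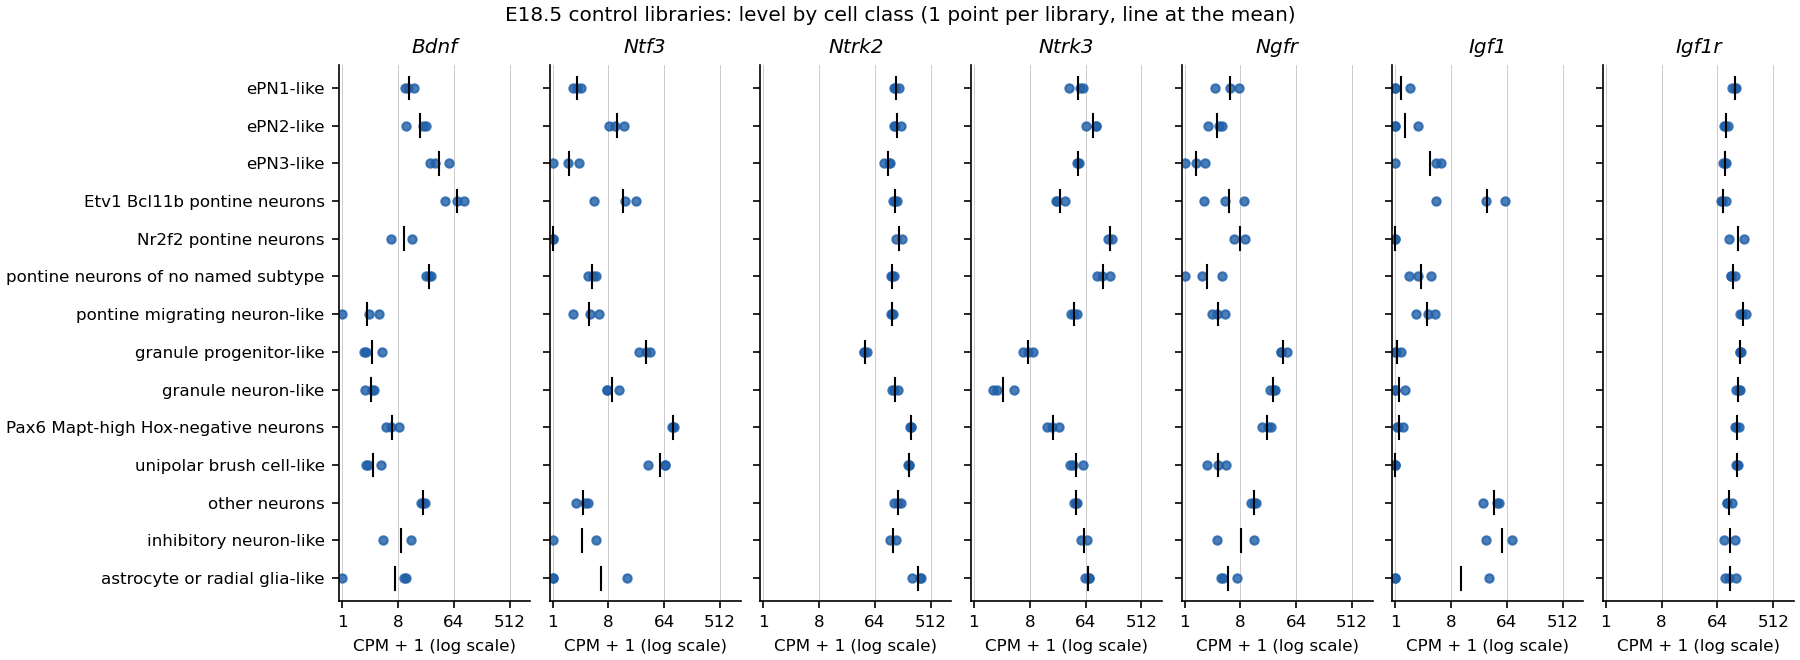
Levels of the 7 genes by cell class in the 3 E18.5 control libraries (CPM + 1, horizontal axis on a log scale; 1 point per library with at least 10 cells of the class, black line at the mean). *Bdnf* separated differentiated pontine neurons from migrating neurons and the granule lineage, *Ngfr* was highest in granule progenitor-like cells, and *Igf1r* was present in all classes.

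Over all kept cells of the controls, 4 of 5 tested members passed between E14.5 and E18.5, where 51.6% of all tested genes did (26.5% higher, 25.1% lower). *Ntf3* rose by 2.93 (SE 0.672, FDR 0.00973), from 4.53, 0.709 and 6.76 CPM to 35.8, 29.7 and 31.8 CPM. This gene entered the test only through E18.5, the stage where it was higher. A *Ntf3* UMI was found in 3.57%, 0.866% and 4.84% of control cells at E14.5, below the filter. At E18.5 the shares were 24.5%, 18.3% and 20.3%. *Ntrk2* rose by 0.81 (SE 0.128, FDR 0.00232) and *Ngfr* by 0.69 (SE 0.181, FDR 0.0159) on the log2 scale. *Igf1r* rose by 0.37 (SE 0.107, FDR 0.0234), from 93.2, 116 and 89.9 CPM to 146, 132 and 131 CPM. The call for *Ngfr* was lost without control library 1 of E18.5 (0.58, FDR 0.0553). The call for *Igf1r* was lost without any 1 of 4 libraries, namely control 1 or 3 of E14.5 or control 1 or 2 of E18.5 (0.30 to 0.38, FDR 0.0555 to 0.0771). The mix of cells differed between these stages, and its part in the result was not tested.

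Whether the mutant Atoh1 changed these genes was tested in 9 sets of cells, with 37 tests of members in all. The test that passed was *Ntrk2* in E18.5 granule progenitor-like cells. DESeq2 also called 1 of the 37, this same test, and 6 of the 37 had an unadjusted p under 0.05 with edgeR. *Ntrk2* was 45.8, 41.2 and 41.2 CPM in controls and 58.4, 54.5 and 59.7 CPM in mutants. All mutant libraries were above all controls, and each mutant was above its littermate. The log2 difference was 0.40 (SE 0.0552, FDR 0.0284, edgeR quasi-likelihood test), where 0.408% of 9792 genes passed in either direction with 0.163% higher and 0.245% lower. Without any 1 of the 6 libraries the difference was 0.38 to 0.43 and the FDR 0.0568 to 0.126, so the call was lost each time. The class pooled several clusters. The part of their mix in the differences of *Ntrk2*, and of *Igf1r* below, was not tested. The share of these cells with a *Ntrk2* UMI was 50.9%, 40.3% and 43.4% in controls and 55.7%, 50.8% and 47.3% in mutants. These overlapped, with each mutant above its littermate. The median depths were 21753, 15852 and 19372 UMIs in controls and 18896, 17500 and 14122 in mutants. Thinned to 5000 UMIs per cell, the shares were 19.5%, 15.9% and 17.3% against 21.96%, 23.2% and 22.03%, with no overlap. As a reference at P5, microglia-like cells had an unthinned share of 12.9%, with a median of 10657 UMIs, and a thinned share of 6.41%. These are other libraries and do not give the background of the E18.5 cells. In the E18.5 controls, *Nts* *Otx2* progenitors had a mean of 8.65 CPM of *Ntrk2* and *Pvalb* *Fst* progenitors 9.37 CPM.

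*Igf1r* was lower in the same mutant cells in each litter without passing the test. It was 156, 145 and 148 CPM in controls and 133, 127 and 135 CPM in mutants, with no overlap and a log2 difference of -0.21 (SE 0.0409, FDR 0.0914). With littermates as a block the FDR was 0.00914, and the size stayed under the limit of 0.25, where 3.56% of genes passed. Over all E18.5 cells *Igf1r* was 146, 132 and 131 CPM against 129, 126 and 120 CPM, a difference of -0.14 (95% interval -0.27 to -0.02, FDR 1.00). In E18.5 pontine neurons it was 114, 104 and 106 CPM against 104, 96.4 and 93.2 CPM, with a difference of -0.15 (-0.28 to -0.02, FDR 1.00). The subtypes in that pool differed between genotypes, since ePN1-like cells were 290 of 1687 control cells and 82 of 1474 mutant cells. Within ePN1-like cells *Igf1r* was 126, 111 and 123 CPM against 102, 117 and 127 CPM, which overlapped. The mutant libraries held 13 to 41 of these cells each, and the larger subtypes are not compared here. The part of this mix in the differences of pontine neurons was not tested.

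**Figure D4:**
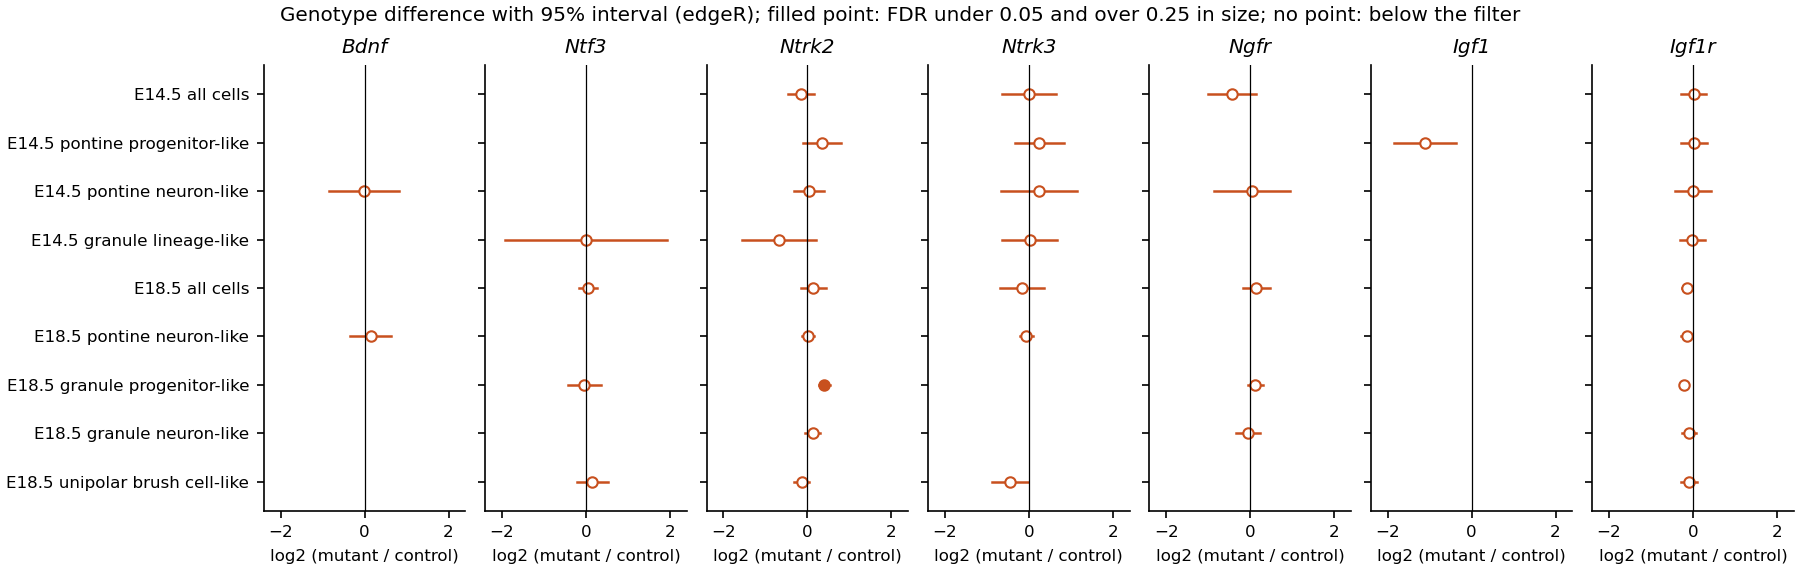
Genotype differences of the 7 genes (log2 of mutant over control, points) with 95% intervals in 9 sets of cells, by edgeR. The filled point, *Ntrk2* in E18.5 granule progenitor-like cells at 0.40, was the member that passed, and genes below the filter have no point.

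*Igf1* in E14.5 pontine progenitor-like cells was lower in each mutant than in its littermate. The control libraries held 31.2, 23.1 and 52.4 CPM and the mutants 18.7, 11.2 and 20.1 CPM, without overlap. The log2 difference was -1.11 (SE 0.336, unadjusted p = 0.00771 by edgeR's quasi-likelihood test, FDR 1.00) and did not pass, where 0.00991% of 10089 genes did. With littermates as a block it was -1.14 with an FDR of 0.0157, which passed, as did 0.545% of genes in that fit. DESeq2 gave -1.13 with an FDR of 0.143. Without control library 3 it was -0.68. The values rest on 44, 56 and 79 UMIs in controls and 139, 81 and 215 UMIs in mutants. The share of cells with an *Igf1* UMI was 26.5%, 26.4% and 39.5% in controls and 22.4%, 14.2% and 22.01% in mutants. The intermediate progenitors had shares of up to 1.37% in controls. The median depth of the progenitors was between 19300 and 22226 UMIs per cell in the 6 libraries, and that of the intermediate progenitors between 14786 and 17470 in controls. After thinning, the progenitor shares were 10.3%, 5.66% and 17.6% against 6.32%, 4.11% and 7.28%, which overlapped, with each mutant below its littermate.

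The number of these progenitors differed between genotypes as well. They were 2.09%, 1.67% and 1.16% of the kept cells in controls, or 68, 106 and 76 cells. In mutants they were 7.29%, 4.57% and 7.12%, or 348, 316 and 468 cells. Of the 2 clusters that made up the class, the first held 34.5, 29.7 and 41.4 CPM in controls and 20.3, 11.2 and 22.9 CPM in mutants. The other held 27.98, 18.4 and 59.8 CPM in controls and 17.2, 11.2 and 17.4 CPM in mutants. Both clusters were lower in the mutant of each litter. C1q UMIs in these cells numbered 0 in 5 libraries and 4 in mutant library 3.

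None of the other genotype differences of the 7 genes that are given here passed without the litters as a block. *Ngfr* in the E14.5 granule lineage was below the filter on low values of the main test and held 3.54, 4.61 and 4.07 CPM in controls and 2.35, 3.19 and 2.92 CPM in mutants, with no overlap. With every gene of at least 10 UMIs tested, the difference was -0.58 with an FDR of 0.631. *Ngfr* over all E14.5 cells was 9.90, 14.48 and 13.1 CPM in controls and 6.62, 11.8 and 10.1 CPM in mutants. The difference of -0.43 (95% interval -0.995 to 0.14, FDR 0.517) did not pass, and with littermates as a block it was -0.44 with an FDR of 0.0115. The mix of cells differed between genotypes in this set. Pontine progenitors, at 0 to 0.414 CPM of *Ngfr*, were 1.64% of the kept cells in controls and 6.33% in mutants, and *Rspo1* *Msx1* progenitors, at 0.205 to 1.30 CPM, 3.90% and 9.22%. Other neurons were 33.8%, 61.5% and 39.7% of the cells in controls and 25.2%, 56.8% and 29.5% in mutants. Their *Ngfr* was 18.3, 18.1 and 22.5 CPM against 15.1, 15.3 and 18.4 CPM. The genotypes overlapped, and each mutant was below its littermate. The part of this mix in the difference was not tested. In that set 0.00977% of 10240 genes passed without the block and 17.6% with it. *Ntrk2* in the E14.5 granule lineage was 50.2, 43.03 and 63.04 CPM in controls and 39.04, 11.3 and 44.4 CPM in mutants (-0.67, interval -1.55 to 0.20, FDR 0.779). The granule lineage pools neurons with progenitors, and neurons were 144 of 485, 80 of 301 and 400 of 1124 cells in controls and 175 of 922, 25 of 163 and 222 of 1094 in mutants. Their *Ntrk2* was 154, 138 and 170 CPM against 178, 45.96 and 209 CPM, which overlapped. In the progenitors it was 12.4, 14.3 and 16.3 CPM against 10.02, 5.70 and 12.1 CPM, without overlap. The part of this mix in the differences of *Ntrk2* and *Ngfr* in the lineage was not tested. *Ntrk3* in E18.5 unipolar brush cell-like cells was 38.9, 35.1 and 57.5 CPM against 37.4, 22.9 and 30.3 CPM (-0.44, interval -0.87 to -0.02, FDR 1.00), where 0.0223% of genes passed, 0.0112% higher and 0.0112% lower.

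In pontine neurons, no tested member passed between genotypes. At E14.5, *Bdnf* differed by -0.01 (95% interval -0.86 to 0.83), *Ntrk2* by 0.03 (-0.33 to 0.39), *Ntrk3* by 0.25 (-0.66 to 1.16), *Ngfr* by 0.04 (-0.86 to 0.94) and *Igf1r* by 0.01 (-0.43 to 0.44). No gene passed in that set, with 173 at an unadjusted p under 0.05 by edgeR and 3 called by DESeq2. At E18.5, *Bdnf* differed by 0.14 (-0.34 to 0.63), *Ntrk2* by 0.02 (-0.12 to 0.16) and *Ntrk3* by -0.05 (-0.21 to 0.10). In this set 0.0202% of genes passed. The intervals at E18.5 thus held *Ntrk2* and *Ntrk3* to within 0.21 on the log2 scale in either direction, and those at E14.5 were wider.

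**Figure D5:**
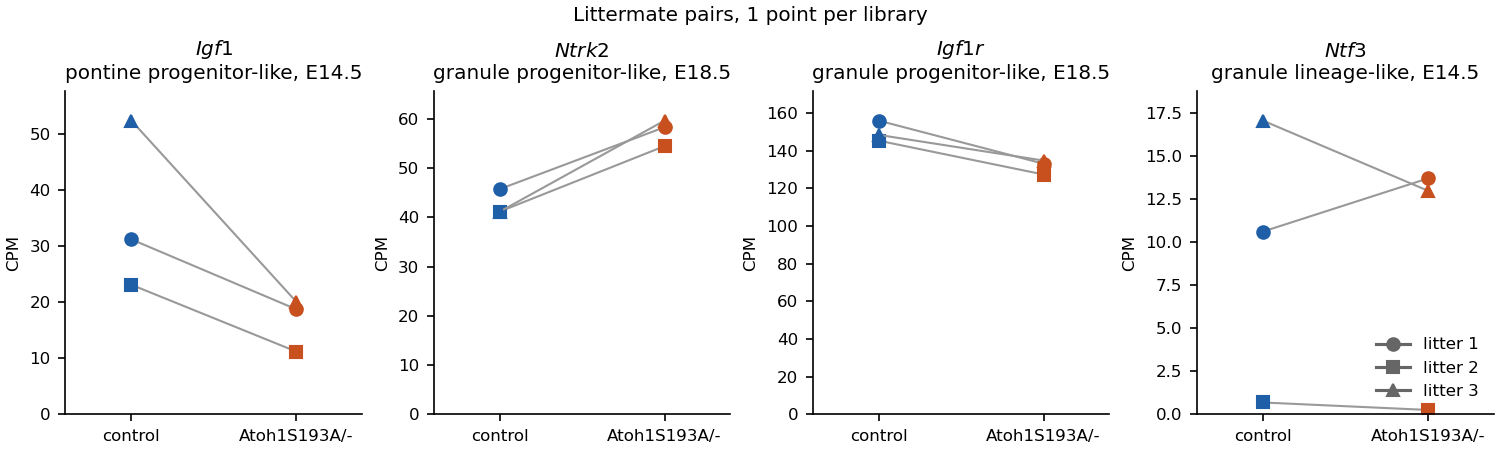
Littermate pairs joined by lines (CPM, vertical axis from 0; 1 point per library; circle, square and triangle: litters 1, 2 and 3). *Igf1* fell from control to mutant in each litter in E14.5 pontine progenitor-like cells, *Ntrk2* was higher and *Igf1r* lower in each mutant in E18.5 granule progenitor-like cells, and *Ntf3* in the E14.5 granule lineage was set apart by litter 2 in both genotypes.

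The effect of genotype was also compared between stages over all kept cells, and none of 5 tested members passed by edgeR or by DESeq2, or had an unadjusted p under 0.05. The difference of the effects, E18.5 minus E14.5, was 0.30 for *Ntrk2* (SE 0.193, FDR 0.757) and 0.59 for *Ngfr* (SE 0.305, FDR 0.703). With litter as a term both passed, at 0.29 (FDR 0.0468) and 0.60 (FDR 0.0180). In that fit 1532 genes passed, against 0 without the litter term.

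A list of 97 other genes of neurotrophin and IGF signalling was read alongside. None of the 53 to 67 of them that could be tested passed in any genotype contrast without the litter block. At most 0.408% of all tested genes passed in these contrasts, so this count does not set the list apart. Between E14.5 and E18.5 in pontine neurons, 23 of 69 rose and 19 fell, or 60.9%, against 60.0% of all genes. The median log2 change was 0.09 for the list and 0.00 for all genes. The 9 tested IGF-binding proteins and regulators all passed, 3 higher and 6 lower. *Pappa2*, a protease that frees IGF from its binding proteins, rose from 0.242 to 37.0 CPM (log2 change 6.97, FDR 1.36e-06), and *Pappa*, a related protease, by 2.87. *Igfbp5* rose by 2.68 and *Ret*, the receptor kinase for GDNF family ligands, by 2.96. *Igfbp2* fell from 410 to 82.9 CPM (-2.42) and *Gfra1*, the GDNF co-receptor, from 38.6 to 2.99 CPM (-3.86). *Igf2bp1* and *Igf2bp2*, which bind RNA and not IGF, fell by 2.31 and 2.69.

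Between E18.5 and P5, 29 of 73 listed genes rose and 23 fell, or 71.2%, against 63.9% of all genes. *Vgf*, a gene known to respond to neurotrophins and activity, rose from 12.7 to 188 CPM (log2 change 3.95, FDR 2.06e-08). The adaptor gene *Shc3* rose by 2.55 and the proprotein convertase gene *Pcsk1* by 1.95. *Igf2bp1* fell again, from 9.96 to 0.490 CPM (-4.20). *Igfbpl1* fell by 3.38, *Cadps2*, a gene of dense-core vesicle release, by 2.86, and *Akt1*, a kinase downstream of these receptors, by 1.13. *Igfbpl1*, *Igfbp2* and *Igfbp5* were also on marker lists used to name pontine classes. The P5 pool lacked migrating neurons, and the part of the cell mix in the stage changes of listed genes was not tested.

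Over all kept cells between E14.5 and E18.5, 19 of 69 listed genes rose and 23 fell, or 60.9%, against 51.6% of all genes. *Cadps2* rose by 3.39, *Pcsk5* by 1.85, *Vgf* by 1.60 and *Gab1*, an adaptor, by 1.60. *Sorcs3*, *Gfra1* and *Rtn4r*, genes of receptors or co-receptors, fell by 1.74, 1.30 and 1.29, and *Igf2bp2* fell by 1.13.

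The genes with the most similar pattern were sought over 47 profiles of control classes, as the Pearson correlation of log2(CPM + 1). The search covered the 8115 genes that reached at least 50 CPM in a profile. The profiles share libraries and differ in depth, so these values are descriptions. *Bdnf* was most like *Cdkl1*, *Gabra5* and *Actr3b* (r of 0.92, 0.92 and 0.91), which peaked in PN4-like or PN6-like cells. *Igf1r* was most like *Arid2*, *Cnot3* and *Rbm6* (0.90, 0.90 and 0.89). *Ntrk2* was closest to *Gabbr1*, *Ddhd1* and *Dtx1* (0.83, 0.81 and 0.80), *Igf1* to *Gpsm3*, *Cebpb* and *Sh3pxd2a* (0.78, 0.75 and 0.73), *Ntf3* to *Cemip*, *Mirt1* and *Ndst3* (0.77, 0.77 and 0.75) and *Ntrk3* to *Gsdme*, *Acadsb* and *Farp1* (0.77, 0.76 and 0.75). *Ngfr* had no close match among these genes, with *Lurap1l*, *Nkain3* and *Nhlh2* at 0.61, 0.60 and 0.58. Between members, *Bdnf* and *Igf1r* ran in opposite directions over the profiles (r = -0.66), as did *Igf1* and *Igf1r* (-0.59), and *Bdnf* and *Ntrk3* had an r of 0.51.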

How the data were processed

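Sorted cells of 14 libraries were profiled by droplet sequencing of 3′ ends (10x v3.1). The deposited values are filtered UMI counts per gene and cell, made by the authors with Cell Ranger on mm10. Per the file headers, 2 libraries (E14.5 Ctrl 1 and 2) came from version 3.1.0 and 12 from version 5.0.1. The version is thus partly tied to genotype at E14.5 and to stage among the controls. Its part in those results cannot be told apart. No normalized values were used, and no column of per-sample values was left out.

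Cells with at least 1000 genes and under 5% mitochondrial UMIs were kept. The 7.5% of these cells per library with the highest Scrublet doublet score were removed, 6507 in all. Each stage was clustered in scanpy 1.11.5 (2000 variable genes, 30 components, 15 neighbours, Leiden resolution 1.0) with the 7 genes left out. Clusters were named from marker lists, some of which the study had found on these libraries, so class names are rebuilt and can differ from the study's. The members and all lists were chosen with earlier results of these data known.

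Counts were summed per library and class with at least 10 cells, and tested with edgeR 4.0.16 (quasi-likelihood test, TMM, Benjamini-Hochberg adjustment over all genes tested). A gene entered where at least 10% of the cells of any group compared had a UMI, so some entered through a single group. It was called at an FDR under 0.05 with a log2 change over 0.25 in either direction. The labels state that each mutant was collected with a littermate. Deviations from group means correlated at 0.527 to 0.925 within the 6 litters and at -0.8 to 0.455 across litters (12 pairs), so a fit with the litter as a block was run as well. Where the block alters a call, its value stands beside the main one. Depth per library is given with the results. Intervals of shares of cells cover counting error only. Those of log2 differences come from the edgeR fit, which includes the spread between libraries. Alternatives were DESeq2 1.42.0, another gene filter, another mitochondrial limit, no doublet removal, 1 Cell Ranger version, equal cell numbers, mutants in place of controls for the stage contrast, and each library left out. The fit without litter 2 was added after seeing the data. The tests were tried on simulated counts first. Genes named from the list of 97 were the 4 with the largest change in each direction among those that passed (1 of them is not reported here), and likeness is given for the 3 closest genes per member. Python 3.11.15 and R 4.3.3 were used.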

Additional observations from a re-analysis of the deposited data

Results flagged for a closer look

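The effect of genotype on *Ntrk2* over all kept cells had opposite signs at the embryonic stages. The log2 ratio of mutant to littermate was -0.0245, -0.223 and -0.0972 at E14.5 and 0.0369, 0.0997 and 0.299 at E18.5, so that the means differed by -0.26 (E14.5 minus E18.5). The test of this difference did not pass in edgeR (FDR 0.757) and passed with the litter as a term (FDR 0.0468), as did 1532 of 10533 genes.

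*Igf1r* over all kept cells had ratios of 0.011, 0.0267 and 0.131 at E14.5 and -0.176, -0.0739 and -0.127 at E18.5, a difference of 0.182. The interaction test gave an FDR of 0.847.

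*Ntrk3* in pontine neurons was higher in each mutant at E14.5 (0.112, 0.352 and 0.303) and lower in each at E18.5 (-0.0794, -0.0332 and -0.0299), a difference of 0.303 that was not tested. Groups of 2 or 3 libraries were too small for a check of single outlying libraries.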

How the results depend on the processing

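Of 648 member values under the alternatives, 569 kept their direction and their side of the threshold, 13 lost a call, 5 gained one, and 61 that were not called changed sign. No called value changed direction. The number of genes that passed depended more on the fit. With the litter as a replicate block, genotype counts at E14.5 were 1802 in all cells (1 without the block), 55 in pontine progenitors (1) and 680 in the granule lineage (0). At E18.5 they were 25 in all cells (0), 54 in pontine neurons (2), 349 in granule progenitors (40), 20 in granule neurons (0) and 39 in unipolar brush cells (2), and 1532 genes passed for the interaction (0). Of the members, the block added the calls for *Igf1*, *Ngfr* and the *Ntrk2* interaction given above and the *Ngfr* interaction (0.60, FDR 0.0180), and changed no other member call.

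DESeq2 gave 249, 14, 3 and 98 genes at E14.5 (all cells, pontine progenitors, pontine neurons, granule lineage). It gave 13, 11, 145, 5 and 1 at E18.5 (all cells, pontine neurons, granule progenitors, granule neurons, unipolar brush cells) and 71 for the interaction. Testing every gene with at least 10 UMIs gave 0 genes in all E14.5 cells, 75 in granule progenitors and 8056 between stages in all cells. The mitochondrial limit of 10% gave 11 in all E14.5 cells and 6 for the interaction, and keeping doublets gave 0 and 1. The fit within 1 Cell Ranger version left 1 E14.5 control library, so it cannot check the version. Leaving out litter 2 gave 0 genes in all E14.5 cells and 2 in E14.5 pontine neurons. Equal cell numbers gave 2 in pontine progenitors and 0 in E18.5 pontine neurons. The mutants in place of the controls gave 3455 between stages in all cells. The cause of these shifts was not tested.

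Leaving out 1 library gave 0 to 1 genes in all E14.5 cells, 1 to 17 in pontine progenitors, 0 to 1 in pontine neurons and 0 to 2 in the granule lineage. At E18.5 it gave 0 to 2 in pontine neurons, 17 to 36 in granule progenitors, 0 to 1 in unipolar brush cells, and 0 to 1 for the interaction.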
